A study of Mus musculus with 13 samples.

Results

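Klf1, Klf3, Sox6 and Bcl11a, 4 transcription factor genes of the red cell lineage, were taken by symbol from the 2036 genes in the differential expression table that the authors deposited, and KLF1 peaks were taken where they lay within 10 kb of these loci. All 4 genes had an abundance in all 3 genotypes. mRNA had been sequenced from mouse fetal livers at 14.5 days post coitum, from D45/- livers (the MommeD45 allele of Klf1 over a null allele), -/- livers (no intact Klf1 allele) and +/- livers (1 intact allele over a null allele), with 3 labelled replicates each. Every mRNA group therefore carried at least 1 null allele of Klf1, and none was wildtype. The series title places the mutation in the linker-2 region of KLF1, a short stretch joining neighbouring zinc fingers. Chromatin bound by KLF1 had been sequenced from mommeD45 and wildtype livers, with 1 library and 1 input each made from 2 pooled replicates. How many copies of the mutant allele the mommeD45 livers carried is not stated in the labels, so the chromatin genotypes cannot be matched to the mRNA genotypes.

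KLF1 is a zinc finger protein that binds CACCC-type DNA elements and activates genes of red cell precursors, adult beta-globin among them. In mice, KLF1 also activates Klf3, whose product is a repressor that binds similar elements and recruits the corepressor CtBP. BCL11A is a zinc finger repressor of the embryonic beta-like globin genes in mice and of the fetal globin genes in humans, and Bcl11a is itself a known target of KLF1. SOX6, a factor of the SoxD group, represses the embryonic gene Hbb-y in mice. The fetal liver at this stage is a site of red cell production in which adult globin replaces embryonic globin.

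The RefSeq promoter windows of the 4 genes are shown because KLF1 acts through short C-rich elements that can be read in them. Each window runs from 250 bases before to 50 bases after an annotated start in build GRCm38.p6 and reads in the direction of transcription. Capitals mark matches to the KLF-type letters CCNCNCCC on either strand (GGGNGNGG on the other), with overlapping matches run together. All 4 genes were found in the RefSeq table. For Sox6, which has 6 annotated starts, the fourth from the outermost is printed, because it alone held the stricter letters CCACACCC (as GGGTGTGG on the opposite strand).
Klf1 (chr8:84901732-84902031, plus strand): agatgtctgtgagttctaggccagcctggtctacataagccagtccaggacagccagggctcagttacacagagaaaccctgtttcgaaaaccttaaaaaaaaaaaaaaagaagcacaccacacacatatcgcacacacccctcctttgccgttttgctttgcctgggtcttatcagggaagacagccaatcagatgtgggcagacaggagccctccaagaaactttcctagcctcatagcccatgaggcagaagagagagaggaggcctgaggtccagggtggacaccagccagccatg
Klf3 (chr5:64803271-64803570, plus strand): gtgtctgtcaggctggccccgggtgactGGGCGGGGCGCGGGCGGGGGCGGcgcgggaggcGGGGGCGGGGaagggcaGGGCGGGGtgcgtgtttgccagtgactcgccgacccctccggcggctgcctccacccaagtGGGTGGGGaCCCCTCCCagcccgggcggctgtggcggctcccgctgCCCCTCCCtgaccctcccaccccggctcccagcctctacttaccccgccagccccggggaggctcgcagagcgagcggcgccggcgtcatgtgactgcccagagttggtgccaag
Sox6 (chr7:115846091-115846390, minus strand): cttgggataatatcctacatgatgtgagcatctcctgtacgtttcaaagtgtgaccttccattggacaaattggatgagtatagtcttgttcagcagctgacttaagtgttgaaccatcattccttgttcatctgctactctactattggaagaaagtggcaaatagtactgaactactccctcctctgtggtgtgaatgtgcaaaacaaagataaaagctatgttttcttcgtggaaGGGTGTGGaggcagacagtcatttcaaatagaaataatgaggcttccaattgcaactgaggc
Bcl11a (chr11:24080445-24080744, plus strand): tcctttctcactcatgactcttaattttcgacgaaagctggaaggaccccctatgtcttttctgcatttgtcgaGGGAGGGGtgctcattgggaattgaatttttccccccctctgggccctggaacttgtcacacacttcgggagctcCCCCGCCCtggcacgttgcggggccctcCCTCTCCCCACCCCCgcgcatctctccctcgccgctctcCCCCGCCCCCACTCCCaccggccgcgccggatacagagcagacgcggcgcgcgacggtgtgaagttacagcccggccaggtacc
The Klf3 window held 10 overlapping or separate matches to CCNCNCCC, a number reached by 1.10% of all 32851 promoter windows of this length, and the Bcl11a window held 8, reached by 2.40%. The Klf1 window held 0 matches. At least 1 match was present in 49.5% of all windows, so a single match is common. The windows also differed in base composition, with 76.7% G or C in Klf3, 63.0% in Bcl11a, 51.3% in Klf1 and 41.0% in the printed Sox6 window, and matches to C-rich letters move with it. Among the other Sox6 starts, the second held 2 matches and the remaining 4 held 0. The stricter letters CCACACCC, on either strand, occurred in 3.56% of all windows, and the Sox6 match to them began 12 bases before the start. This Sox6 window was picked from 6 because it held them, so the share does not tell how rare that match is. That Sox6 window also held the GATA-type letters AGATAA, which occurred on either strand in 11.2% of all windows. A match describes letters and shows no binding.

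Klf1 mRNA set the -/- livers apart but did not tell D45/- from +/- livers. The authors' deposited table gave Klf1 398 FPKM (fragments per kilobase of transcript, scaled to library size) in D45/- livers, 34.8 FPKM in -/- livers and 378 FPKM in +/- livers. D45/- and +/- livers, which each have 1 allele that is not null, were close in Klf1 mRNA, while -/- livers kept 9.19% of the +/- abundance. The call for Klf1 was a 10.9-fold lower abundance in -/- livers than in +/- livers (log2 ratio -3.44, q = 0.00159) per the authors' deposited table, where q is their p-value adjusted over all 3 comparisons and a call is a q up to 0.05. It was also called 11.5-fold higher in D45/- than in -/- livers (log2 ratio 3.52, q = 0.00159 per the authors' deposited table). Between D45/- and +/- livers the log2 ratio of the abundances was 0.07, and this comparison was not called. The genotype of Klf1 fixes the drop in -/-, and which part of the transcript the null allele leaves is not stated in the labels. The table holds 1 abundance per genotype, so neither a spread between replicates nor an interval for the Klf1 difference between D45/- and +/- can be given, and the sequencing depth is unknown.

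These were whole livers, in which fewer red cell precursors and less RNA per precursor cannot be told apart. Of 9 red cell markers, 7 were called lower in -/- and 0 were called in D45/- against +/- livers, where 6.78% of all genes tested were called lower in -/- and 1.1% lower and 0.663% higher in D45/-. The summed abundance of these 7 was 4922 FPKM in D45/-, 2006 FPKM in -/- and 6023 FPKM in +/- livers per the authors' deposited table. In -/- livers 4 of 4 granulocyte, 4 of 6 megakaryocyte and 2 of 4 endothelial and stromal markers were called higher, against 7.0% of all genes tested. The granulocyte markers with all 3 abundances summed to 110 FPKM in D45/-, 253 in -/- and 94.9 in +/- livers per the authors' deposited table. In D45/- against +/- livers 0 of 4 granulocyte and 1 of 6 megakaryocyte markers (Plek, log2 ratio 0.83 per the authors' deposited table) were called higher. Of the 4 endothelial and stromal markers 0 were called there, and hepatocyte and macrophage markers had 1 called in each direction. No listed marker was at 0. The part of cell composition in the changes of Klf3, Sox6 and Bcl11a was not tested.

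Klf3, Sox6 and Bcl11a were each lower in -/- than in +/- livers, and also in D45/- than in +/- livers, where Klf1 mRNA itself was not called different. The order of genotypes was the same for these 3 genes, with -/- lowest, D45/- next and +/- highest, though for Bcl11a D45/- and -/- were not called different. The drop in -/- was largest for Sox6, at 8.84-fold, and smallest for Bcl11a, at 2.43-fold. In D45/- livers the drops lay close together, between 1.73-fold for Sox6 and 2.05-fold for Klf3.

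Klf3, the gene of the CACCC-binding repressor, was at 34.2 FPKM in D45/-, 10.8 FPKM in -/- and 70.0 FPKM in +/- livers per the authors' deposited table. Its 3 genotypes were all called different from each other. The log2 ratio was -1.04 for D45/- over +/-, -2.70 for -/- over +/- and 1.66 for D45/- over -/-, each with a q of 0.00159 per the authors' deposited table.

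Sox6, the gene of the SoxD repressor of embryonic globin, was at 18.1 FPKM in D45/-, 3.55 FPKM in -/- and 31.4 FPKM in +/- livers per the authors' deposited table. The D45/- abundance was 57.8% and the -/- abundance 11.3% of that in +/-. Its log2 ratio was -0.79 for D45/- over +/- (q = 0.0136), -3.14 for -/- over +/- (q = 0.00159) and 2.35 for D45/- over -/- (q = 0.00159) per the authors' deposited table. Among the 879 genes called lower in -/-, 36 had a larger drop than Sox6, 26 a larger drop than Klf1 and 47 a larger drop than Klf3.

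Bcl11a, the gene of the other repressor of embryonic globin, was at 15.3 FPKM in D45/-, 12.6 FPKM in -/- and 30.6 FPKM in +/- livers per the authors' deposited table. The D45/- abundance was 49.99% and the -/- abundance 41.2% of that in +/-, so these genotypes lay close together and below +/-. It was called lower in D45/- (log2 ratio -1.0, q = 0.0158) and in -/- (log2 ratio -1.28, q = 0.00159) than in +/- livers per the authors' deposited table. Between D45/- and -/- it was not called, and the log2 ratio of the abundances was 0.28. In the size of its drop in -/- it was ranked 287 of 879.

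**Figure D1:**
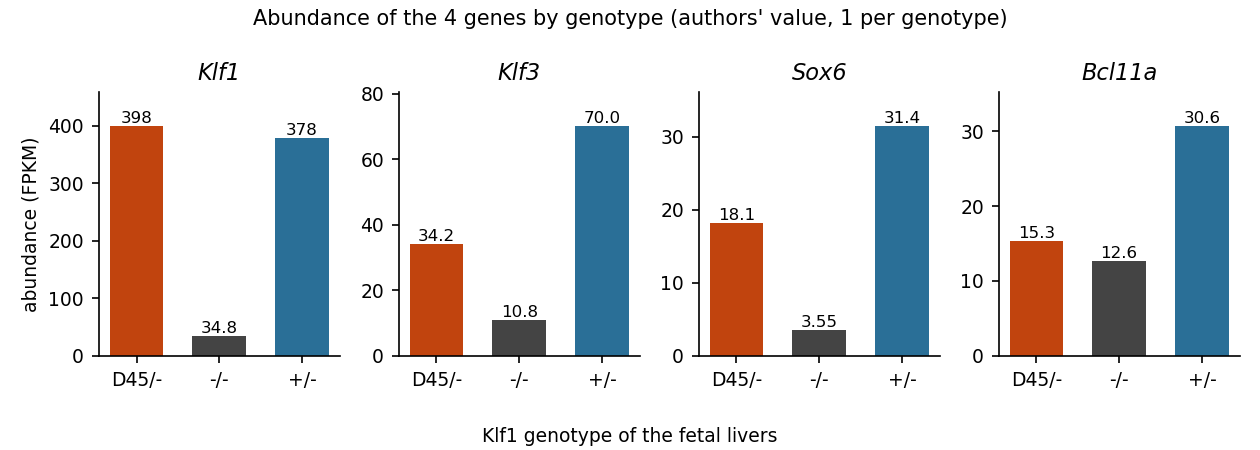
Abundance in FPKM of Klf1, Klf3, Sox6 and Bcl11a in D45/-, -/- and +/- livers, with 1 bar for the authors' value of each genotype and no error bars, as single replicates were not analysed here; each panel has its own axis from 0. Klf1 is at 398 FPKM in D45/- and 378 in +/-, while Bcl11a is at 15.3 FPKM in D45/- and 12.6 in -/-, both under its 30.6 in +/-.

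Of the 4 genes, 3 were called lower in D45/- than in +/- and 0 higher, where 1.1% of all genes tested were called lower and 0.663% higher. In -/- against +/-, all 4 were called lower, Klf1 through its genotype, against 6.78% of all genes tested. In D45/- against -/-, 3 were called higher, against 3.48% of all genes tested. The 4 genes were taken from genes called in some comparison and were chosen with earlier results of these data known. Their counts therefore describe them and show no enrichment over these shares. The number tested, 12965 per comparison, was worked back from the q-values. The comparisons share libraries in pairs (the +/- libraries in the first 2, for instance), so agreement between them is not independent. The calls of Sox6 and Bcl11a in D45/- against +/- did not pass 0.05 when q was recomputed within that comparison alone (q = 0.0635 for Sox6 and 0.0730 for Bcl11a), while that of Klf3 did (q = 0.00791).

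The position of D45/- between the null and the intact allele was worked out for each of the 4 genes. On the log2 scale, with -/- at 0% and +/- at 100%, D45/- livers stood at 102% for Klf1, 74.8% for Sox6, 61.6% for Klf3 and 21.8% for Bcl11a. The position of Klf1 rests on its own alleles, as D45/- and +/- livers each have 1 that is not null. It is therefore no contrast for the other genes. Among 449 genes called lower in -/- with an abundance in all 3 genotypes, the median position was 75.3% and the quartiles were 61.3% and 89.8%. On this scale Sox6 and Klf3 stood between the quartiles of these genes, while 26 of the 449, Bcl11a included, stood at or under the position of Bcl11a. Taken on the FPKM scale instead, a choice made after seeing the data, the positions were 106% for Klf1, 52.4% for Sox6, 39.4% for Klf3 and 14.96% for Bcl11a. The median of the 449 genes was then 64.1% and the quartiles 43.3% and 85.5%, so that Klf3 stood under the lower quartile and 37 genes at or under Bcl11a. The other 430 genes called lower in -/- were not placed, because they had no listed D45/- abundance (given for genes called in a comparison with D45/-) or fell to a filter on low values (above 0 in all 3 genotypes and at least 1 FPKM in the highest). The 449 genes were thus placed only through a call with D45/-. Among all genes, 451 were called higher in D45/- than in -/- and 142 lower than in +/-. Listing may therefore have favoured high positions and raised the median and quartiles. The places of Sox6, Klf3 and Bcl11a among the 449 genes are descriptive only. Whether the positions of the 4 genes differ beyond replicate error was not tested, since the table gives 1 value per genotype.

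Genes nearest to each member over the 3 genotypes were found by distance in the plane of the log2 ratios of D45/- and of -/- to +/-, among 984 genes with all 3 abundances after the same filter. Nearest to Klf3 were Syt14 (distance 0.11 log2 units), Gm5088 (0.12) and Tmcc2 (0.13). Tmcc2, the most abundant of these, was at 326 FPKM in D45/-, 117 in -/- and 701 in +/- livers per the authors' deposited table. For Bcl11a they were Tagln3 (0.11), Nlrp1a (0.13) and Dclk2 (0.17). Sox6 had Slc25a37 (0.26), which carries iron into mitochondria, Ptp4a3 (0.35) and the heme synthesis gene Alad (0.35). Klf1 stood more apart, with Dnajb13 at 0.32, Alad at 0.77 and the beta-globin row Beta-s at 0.83. Within 0.25 log2 units there were 8 genes for Klf3, 11 for Bcl11a and 0 for Sox6 and Klf1. Likeness rests on 3 genotypes and says nothing of replicate error.

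Other red cell transcription factors were also called lower in -/- livers. Of a list of 30 factors that holds the 4 genes, 15 were called lower and 2 higher in -/- than in +/-, where 6.78% and 7.0% of all genes tested were called. Without the 4 genes these were 11 lower and 2 higher of 26. The list, like the other gene and marker lists here, was chosen with earlier results of these data known. Such counts describe the lists and show no enrichment over the shares beside them. The called factors of the whole list, the 4 genes included, had a median log2 ratio of -1.28, which is the value of Bcl11a. The median of all called genes was 0.75. As these were 879 lower and 907 higher, that median describes no typical called gene and is no measure to set the factors against. In D45/- against +/-, 5 were called lower and 0 higher, where 1.1% and 0.663% of all genes tested were called, and beyond Klf3, Sox6 and Bcl11a these were E2f2 and E2f4. At a q under 0.01, or with q recomputed within the comparison, 3 of the 5 remained, since Sox6 and Bcl11a did not pass. In D45/- against -/-, 11 were called higher and 2 lower, where 3.48% and 4.89% of all genes tested were called. E2f2, a cell cycle factor of late erythroblasts, was at 83.8 FPKM in D45/-, 20.6 in -/- and 203 in +/- livers per the authors' deposited table. E2f4 was at 198 FPKM in D45/-, 80.7 in -/- and 413 in +/- livers per the authors' deposited table. Their positions, 61.3% and 55.0%, were near that of Klf3.

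Other factors of the list were called as well. The authors' deposited table gave log2 ratios for -/- over +/- of -1.97 for Lmo2, -1.08 for Tal1, -1.01 for Ldb1 and -1.06 for Tcf3, whose products can bind DNA in one complex, and of -1.30 for Lyl1, a close relative of Tal1. Of these 5 genes, Lmo2, Tal1 and Lyl1 were also called higher in D45/- than in -/- livers, as were Nfe2 and Zbtb7a. Nfe2, the gene of a basic leucine zipper factor that acts at the globin locus, was at 232 FPKM in D45/-, 94.8 in -/- and 225 in +/- livers per the authors' deposited table. Zbtb7a, whose product LRF represses fetal globin in humans, was at 31.3 FPKM in D45/-, 12.2 in -/- and 39.9 in +/- livers per the authors' deposited table. D45/- stood at 103% of the way from -/- to +/- for Nfe2, at 89.5% for Tal1, 79.4% for Zbtb7a and 70.4% for Lmo2. None of these was called in D45/- against +/-, so each had a D45/- abundance only through its call over -/-. A high position was thus favoured by how they were listed, and no contrast with Bcl11a can be drawn from it. Gfi1, a repressor of other blood lineages, was called higher in -/- (log2 ratio 1.49 per the authors' deposited table), as was the megakaryocyte factor gene Fli1 (0.89). Gata1 and Myb were not among the listed genes in any comparison.

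**Figure D2:**
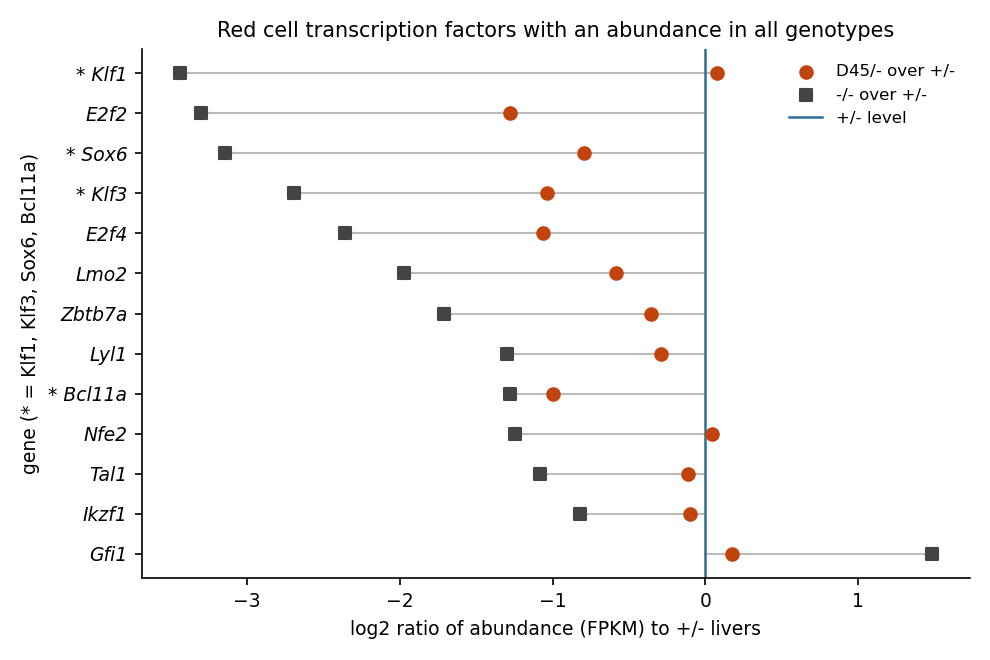
Log2 ratios of FPKM to +/- livers for 13 factors of the list with an abundance in all 3 genotypes, as circles for D45/- and squares for -/-, with the +/- level as a vertical line and asterisks on the 4 genes. Bcl11a has its circle at -1.0 beside its square at -1.28. Nfe2 and Klf1 have circles at 0.04 and 0.07, next to the line.

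Within the family of Kruppel-like and Sp factors, 6 of 21 genes were listed, where 2036 genes were listed in all and 12965 tested per comparison. Klf16 was at 13.2 FPKM in D45/-, 7.28 in -/- and 19.6 in +/- livers per the authors' deposited table. Its calls were lower in -/- than in +/- livers (log2 ratio -1.43) and higher in D45/- than in -/- (0.86) per the authors' deposited table. Klf11 was the only other member called in D45/- against +/-, at 1.2 against 2.88 FPKM (log2 ratio -1.26, q = 0.00702 per the authors' deposited table). Klf2, which in mice also takes part in embryonic globin expression, was called at 2.14 FPKM in -/- against 4.61 in +/- livers, and Klf6 at 15.9 against 8.87 FPKM, per the authors' deposited table. The family thus had 4 genes lower and 1 higher in -/-, where 6.78% and 7.0% of all genes tested were called. Without Klf1 and Klf3 these were 2 lower and 1 higher of 19. In D45/- against +/- the family had 2 lower and 0 higher, where 1.1% and 0.663% of all genes tested were called. Of 7 Sox genes, the table listed Sox6 and Sox7. In -/- against +/- this was 1 lower and 1 higher, beside the same 6.78% and 7.0%. Sox7, at 2.30 FPKM in -/- against 0.566 FPKM in +/- livers per the authors' deposited table, went the other way from Sox6 (log2 ratio 2.02).

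The globin genes that these factors act on were listed in 7 rows, after depletion of globin transcripts in all libraries. Hbb-y, the embryonic gene that SOX6 and BCL11A repress in mice, was at 2003 FPKM in D45/-, 10394 in -/- and 2554 in +/- livers per the authors' deposited table. Hbb-bh1, the other embryonic beta-like gene, was at 555 FPKM in D45/-, 883 in -/- and 196 in +/- livers per the authors' deposited table. D45/- livers were thus above +/- for Hbb-bh1 (log2 ratio 1.5, q = 0.00159 per the authors' deposited table) and were not called different from +/- for Hbb-y, with a log2 ratio of -0.35. From -/- to +/- livers, D45/- stood at 30.8% for Hbb-bh1 and at 117% for Hbb-y. Whether the levels of Sox6 or Bcl11a bear on either globin was not tested. Hba-x, the embryonic alpha-like gene, went the other way from Hbb-y and Hbb-bh1 in -/- livers. It was at 687 FPKM in D45/-, 274 in -/- and 1249 in +/- livers per the authors' deposited table. In the same order of genotypes, Hbq1a was at 6.68, 1.99 and 8.55 FPKM and Beta-s at 1362, 98.2 and 1749 FPKM there. Hba-a2 was at 935 FPKM in D45/- and 295 in -/- livers. Adult beta-globin, counted in a merged row (Hbb-b1,Hbb-b2), stood at 680 FPKM in D45/-, 61.4 in -/- and 1123 in +/- livers per the authors' deposited table. Reads of these near-identical copies may be shared between rows, and how far depletion acted on each globin was not measured here.

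**Figure D3:**
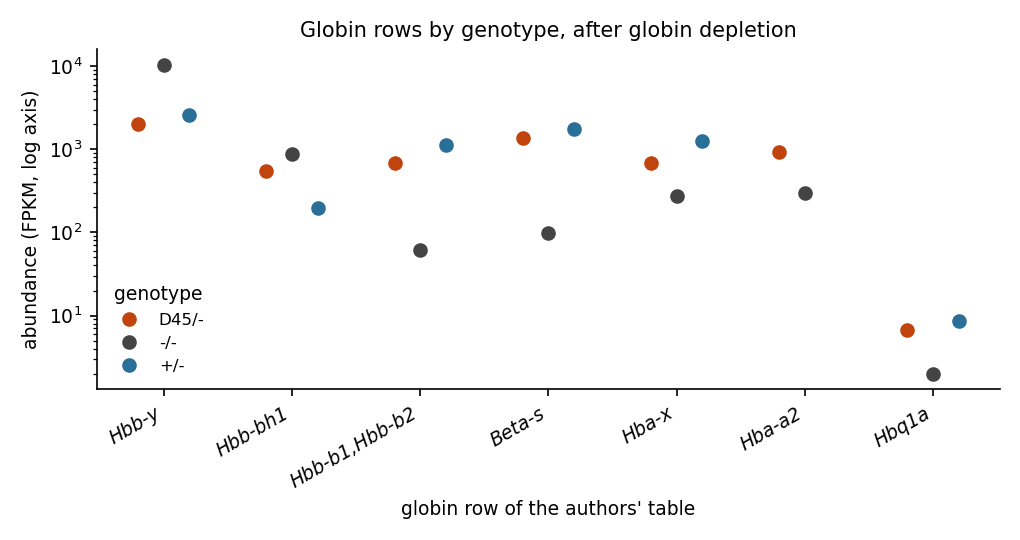
FPKM on a log axis of the 7 globin rows in D45/-, -/- and +/- livers, 1 point for the authors' value of each genotype; Hba-a2 has no point for +/- because it was not listed against it. For Hbb-bh1 the D45/- point (555 FPKM) lies between -/- (883) and +/- (196), while for Hbb-y it lies under both.

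KLF1 binding near the 4 genes was read from the authors' peaks, 485 in mommeD45 and 1203 in wildtype livers, with coordinates in build mm9. Klf1 and Klf3 each had 1 peak within 10 kb in each genotype, and Sox6 and Bcl11a had 0. For comparison, 7.37% of the 2036 listed genes had a mommeD45 peak and 16.1% a wildtype peak within 10 kb, and among the 879 genes called lower in -/- these shares were 13.5% and 29.7%. Fold enrichment over the local background is the authors' value and describes a peak within its own list.

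The peak near Klf1 was among the strongest of either list. In mommeD45 livers it lay at chr8:87432336-87432621 with a fold enrichment of 10.6, the rank of 27 among 485 peaks. In wildtype livers it lay at chr8:87432293-87432688 with a fold enrichment of 28.7, the rank of 12 among 1203. The summits, 6.66 and 6.65 kb from the start of the locus (chr8:87425826-87429194), were in nearly the same place, and both peaks lay about 3.1 kb beyond its end (gaps of 3.14 and 3.10 kb). By the gene order of RefSeq (GRCm38.p6), the next protein-coding gene on that side of Klf1 is Dnase2a, which encodes a lysosomal nuclease with which macrophages degrade the nuclei expelled by erythroblasts. Dnase2a was not among the listed genes, and whether the peak belongs to it or to Klf1 was not tested.

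The peaks near Klf3 did not overlap. Over the whole lists, 74.6% of mommeD45 peaks overlapped a wildtype peak and 30.01% of wildtype peaks a mommeD45 peak. Lack of overlap was thus the usual case for a wildtype peak and the less usual case for a mommeD45 peak. In mommeD45 livers the peak lay at chr5:65194067-65194313, with its summit 0.582 kb before the start of the locus (chr5:65194761-65221368), and in wildtype livers at chr5:65202871-65203064, inside the locus with its summit 8.19 kb from the start. Both were weak within their lists. The mommeD45 peak had a fold enrichment of 3.58 against a list median of 4.77, and 9.90% of its list lay below it. The wildtype peak had a fold enrichment of 4.10 against a list median of 4.93, with 25.8% of its list below it. With weak peaks and 1 library per genotype, the absence of either peak from the other list shows no difference in binding. The RefSeq promoter window printed above comes from another build and a locus of another length (29.4 kb against 26.6 kb in the authors' table), so its place relative to the mommeD45 peak was not determined.

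Sox6 (chr7:122614857-123182258) and Bcl11a (chr11:23978055-24073558) had no called KLF1 peak in or near them. The peak nearest to Sox6 was 2091 kb away in both lists, and the peak nearest to Bcl11a was 822 kb away. The absence held for Sox6 although its locus spans 567 kb. An absent peak says that no peak passed the authors' threshold in these libraries.

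**Figure D4:**
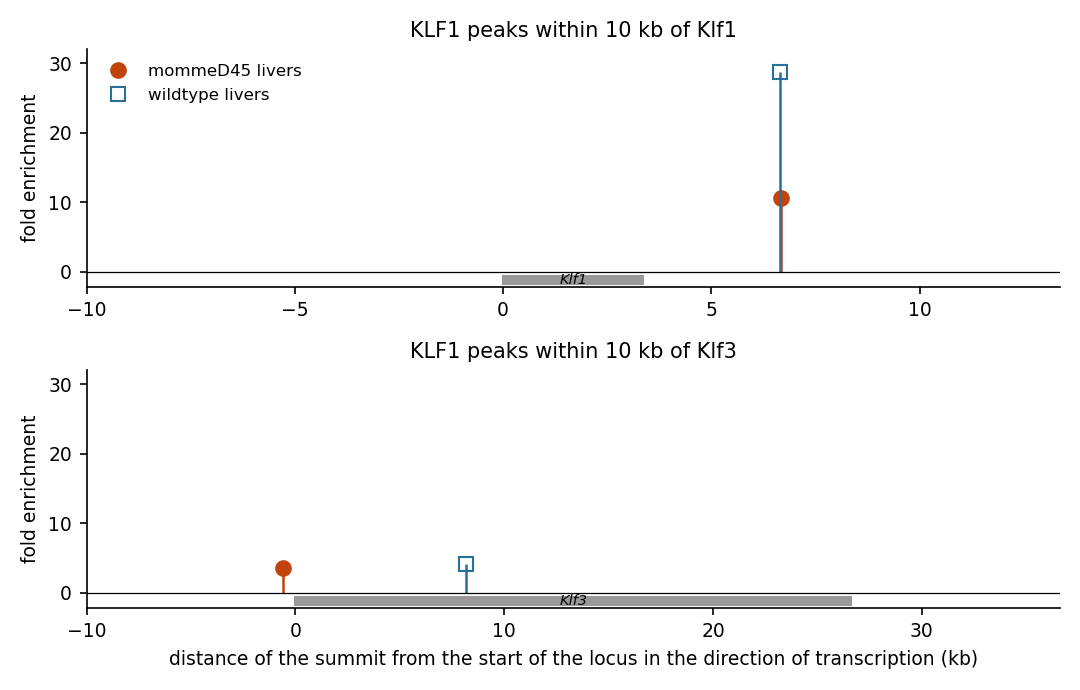
KLF1 peaks within 10 kb of Klf1 (top) and Klf3 (bottom), plotted as fold enrichment at the summit against distance from the start of the locus in kb, with filled circles for mommeD45 and open squares for wildtype livers and the locus as a grey bar. The Klf1 peaks share a place 6.66 and 6.65 kb from the start, at 10.6-fold in mommeD45 and 28.7-fold in wildtype, while the Klf3 peaks lie apart and reach 3.58-fold and 4.10-fold.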

How the data were processed

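mRNA was measured in 9 libraries of 3 Klf1 genotypes after globin depletion, per the labels, and KLF1-bound chromatin in 4 libraries. The gene table was deposited as the authors' cuffdiff output, with 1 abundance per genotype, a log2 ratio, a test score, a p-value and a q-value, per the file headers, and lists rows marked significant. FPKM is assumed for the abundance, because the columns are laid out as cuffdiff writes them and the header names no unit. TopHat2 2.0.10 and mm9 come from the submitters' processing notes; for cuffdiff, version and options are not stated. For the peaks, the deposited description sheet names Bowtie2 mapping to mm9, Picard duplicate removal and MACS2. Per the file headers, a peak carries its pileup signal, fold enrichment, −log10 p-value and −log10 q-value.

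No model was refitted, because single replicates were not analysed here, and depth is unknown. Log2 ratios were turned so that the first-named genotype is over the second, with no pseudocount. Ratios for comparisons without a call were computed from the deposited abundances. Each abundance listed in more than 1 comparison (1125 values) was the same in each. The q-values implied 38894 tests in all. Recomputed q used Benjamini-Hochberg over 12965 tests, an assumed equal share per comparison, and was tested on simulated p-values. Split summits (490 in mommeD45, 1247 in wildtype) were merged to 1 per peak. Distances run from the locus of the authors' table. No sequence of the peaks was read. The 4 genes, the gene lists, the markers and the naming rule (the 4 genes, up to 6 called members per list and comparison by size, all globins, the 3 nearest genes) were chosen with earlier results of these data known; Gata1, Myb, Dnase2a, Prdx2 and further called factors of the list were named beyond the rule. Alternatives covered q, abundance filters, pseudocounts, distance and overlap. Python 3.11.15, numpy 2.4.6, pandas 2.3.3, scipy 1.17.1 and matplotlib 3.10.9 were used.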

Additional observations from a re-analysis of the deposited data

How the results depend on the processing

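No paired analysis was possible because the deposited table gives 1 abundance per genotype and no replicate columns, and for the same reason no replicate could be left out. At a q under 0.01, D45/- against +/- kept 130 of 228 calls, -/- against +/- 1048 of 1786 and D45/- against -/- 618 of 1085. With q recomputed within D45/- against +/-, 131 calls passed. Of the 4 genes, 1 (Klf3) then passed in D45/- against +/- under either setting, instead of 3: Sox6 had a q of 0.0136 as deposited and 0.0635 recomputed, and Bcl11a 0.0158 and 0.0730. Of the red cell factors, 3 instead of 5 were lower there under either setting, and of the Sox genes 0 instead of 1. At a q under 0.01, red cell factors had 1 instead of 2 genes in the minority direction, both for -/- against +/- (higher) and D45/- against -/- (lower); the Kruppel-like family had 0 instead of 1 higher in -/-, BCL11A partners 0 instead of 2 lower in -/-, and fetal regulators 0 instead of 1 lower in D45/- than in -/-. On the FPKM scale, an alternative chosen after seeing the data, the position of D45/- was 39.4% for Klf3, 52.4% for Sox6 and 14.96% for Bcl11a. Pseudocounts of 0.1 and 1 reversed no log2 ratio of the 4 genes. Peaks near Klf1 became 0 in both genotypes inside the locus, and 2 in mommeD45 and 4 in wildtype within 100 kb. Klf3 had 0 mommeD45 peaks inside the locus, and 0 in either genotype among the stronger part of each list (at or above the median fold enrichment). The shared Klf1 peak stayed shared under both stricter definitions of overlap. Unlisted genes have no p-value here, so recomputed calls in -/- against +/- and D45/- against -/- may miss genes. Each fold enrichment comes from 1 library.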

Other observations

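Of 19 genes of complexes that work with BCL11A, Mbd3, a subunit of the NuRD complex, and the DNA methyltransferase gene Dnmt1 were called lower in -/- than in +/- livers, at 64.5 against 114 FPKM and 76.0 against 131 FPKM per the authors' deposited table. Of all genes tested, 6.78% were called lower in -/-. In D45/- against +/-, 0 of the 19 were called, where 1.1% of all genes were called lower and 0.663% higher. Of 6 cofactors and reported targets of KLF3, the corepressor gene Ctbp1 was called lower in -/- (115 against 244 FPKM per the authors' deposited table) and Fhl3, whose product binds KLF3, was called higher (14.1 against 6.85 FPKM there), where 6.78% and 7.0% of all genes tested were called lower and higher. Klf8, Lgals3 and Fam132a, which KLF3 is known to repress in mice, were not listed in any comparison. Of 7 regulators of the fetal program, Igf2bp2 alone was listed, called lower where 4.89% of all genes tested were, at 6.68 FPKM in D45/- against 11.6 FPKM in -/- livers per the authors' deposited table.

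Around Klf1, beyond the 10 kb limit and up to 100 kb, 2 wildtype peaks had no overlapping mommeD45 peak, as was the case for most wildtype peaks (30.01% of 1203 overlapped one). The first lay 54.8 kb before the start of Klf1 with a fold enrichment of 4.36, and the other lay inside the locus of Prdx2, the gene of a red cell peroxiredoxin, 69.2 kb from the start of Klf1, with a fold enrichment of 6.72.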
